A study of Rattus norvegicus with 4 samples.

Results

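Liver endothelial cell genes were examined in 4 rat livers after inhalational anesthesia. The members were chosen by name, and 8 of the 10 listed genes (*Pecam1*, *Cdh5*, *Vwf*, *Stab2*, *Lyve1*, *Kdr*, *Tek*, and *Erg*) were found among the 16982 annotated genes with a value in all 4 libraries. *Stab1* and *Clec4g* were not analysed here. RNA was sequenced from the liver of 1 wild type male Wistar rat for each of 4 conditions. The rats, purchased at 6 weeks of age, inhaled 4.5% sevoflurane or 6% desflurane in 50% oxygen for 6 hours, and the control of each agent inhaled the same agent for less than 1 minute, until consciousness was lost. Food and water had been withdrawn 2 hours before the experiment in every group, and all rats were sacrificed at about the same time of day, so that a longer stay without food and the anesthesia itself cannot be told apart in the 6 hour livers. The livers were whole tissue pieces in which endothelial cells are a minority. In such bulk samples, fewer endothelial cells and less RNA per cell cannot be told apart.

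Endothelial cells line the blood vessels. In the liver most of them line the sinusoids, where they are perforated by fenestrae, lack a complete basement membrane, and clear waste molecules from the blood through scavenger receptors. Vessels of larger caliber, such as portal and central veins, have a continuous lining instead. Both kinds of cell hold together through endothelial cadherin and depend on the VEGF and angiopoietin receptors, and transcription factors of the ETS family maintain their identity.

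Expression is given as TPM, a level per gene length and per library as scaled by StringTie. With 1 library per condition no test was possible, no SD within a condition exists, and all values are descriptions of these 4 livers. The difference between the controls is the only measure of how far a pair of livers without long anesthesia differ. Aligned sequence amounted to between 4.47 and 5.40 Gb per library, and the average coverage of the members was between 7.08 and 94.8 reads per base. A gene was called when the larger of the compared TPM values exceeded 2 and the values differed more than 2-fold. Log2 changes were computed with a pseudocount of 1 TPM. All genes over the limit had a median of 0.05 for sevoflurane and 0.11 for desflurane versus the own control, and this common shift is part of every change given for a member.

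*Kdr*, the main VEGF receptor of endothelial cells, was the most abundant member. It measured 52.7 TPM in the control and 47.6 TPM in the 6 hour liver of the sevoflurane pair, and 50.2 and 54.0 TPM in the control and 6 hour liver of the desflurane pair. Where 4 values follow each other below, they keep this order. *Lyve1*, a hyaluronan receptor of sinusoidal and lymphatic endothelium, and *Stab2*, a scavenger receptor of sinusoidal cells, had mean TPM values of 45.0 and 35.3. *Cdh5* encodes VE-cadherin, which joins endothelial cells to each other, and *Pecam1* encodes an adhesion molecule of their contacts, and their means were 29.6 and 19.5. *Tek*, the angiopoietin receptor, and *Erg*, an ETS transcription factor, followed with means of 11.2 and 6.94. *Vwf*, which encodes von Willebrand factor and is known in liver from larger vessels, had the lowest mean, 4.54, with values of 4.59, 4.18, 4.55, and 4.84 TPM. In all 4 libraries the order of the 8 members was the same, running from *Kdr* through *Lyve1*, *Stab2*, *Cdh5*, *Pecam1*, *Tek*, *Erg*, and *Vwf*. The mean level of *Vwf* exceeded that of 52.1% of all genes and that of *Kdr* exceeded 90.3%. Markers of sinusoidal and of general endothelium were both present at more than 2 TPM in each liver. In rn6, the annotated genes lie at chr14:34727677-34787126 (*Kdr*, plus strand), chr1:175663266-175676699 (*Lyve1*, minus strand), chr7:27369853-27552078 (*Stab2*, minus strand), chr19:1025122-1074333 (*Cdh5*, minus strand), chr10:94850971-94913202 (*Pecam1*, minus strand), chr5:113725717-113852799 (*Tek*, plus strand), chr11:35646515-35749484 (*Erg*, minus strand), and chr4:158088533-158219525 (*Vwf*, plus strand). Each value covers the exons of the whole gene. The paper names a kit for stranded libraries of total RNA, but whether strand was used in counting is not given in the sources used here. Reads of antisense transcripts could therefore be included.

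**Figure D1:**
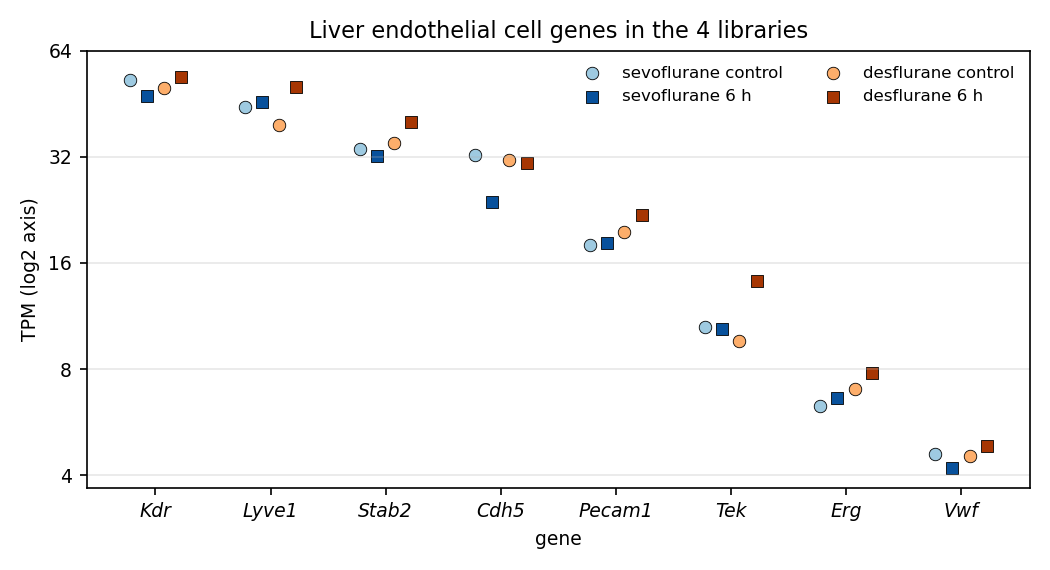
TPM values (log2 axis) of the 8 endothelial genes, ordered by mean, with 1 point per library; circles are controls and squares are 6 hour livers. The *Cdh5* value after 6 hours of sevoflurane (23.8) lies under the other libraries, and the *Tek* value after 6 hours of desflurane (14.2) lies over them.

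The sequences before the start sites of 3 members are shown to set the most abundant receptor (*Kdr*), the sinusoidal gene that was higher in both 6 hour livers (*Lyve1*), and the ETS factor (*Erg*) beside each other. They are the 250 bases upstream of the RefSeq start on build GRCr8, written 5′ to 3′ along the gene, with GGAA or its reverse complement TTCC, the core that ETS factors recognize, in capitals. The *Kdr* window is chr14:32571813-32572062 on the plus strand, the *Lyve1* window is chr1:174410978-174411227 on the minus strand, and the *Erg* window is chr11:48251567-48251816 on the minus strand.
Kdr: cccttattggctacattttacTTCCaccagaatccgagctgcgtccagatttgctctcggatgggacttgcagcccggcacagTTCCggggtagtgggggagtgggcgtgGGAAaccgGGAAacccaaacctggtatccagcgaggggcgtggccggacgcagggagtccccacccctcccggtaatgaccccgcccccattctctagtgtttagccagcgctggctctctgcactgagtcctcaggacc
Lyve1: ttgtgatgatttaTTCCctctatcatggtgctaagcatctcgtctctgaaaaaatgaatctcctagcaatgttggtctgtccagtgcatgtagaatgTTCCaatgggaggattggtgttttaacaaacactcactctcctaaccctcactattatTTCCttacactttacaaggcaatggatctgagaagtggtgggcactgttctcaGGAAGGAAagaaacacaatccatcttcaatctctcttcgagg
Erg: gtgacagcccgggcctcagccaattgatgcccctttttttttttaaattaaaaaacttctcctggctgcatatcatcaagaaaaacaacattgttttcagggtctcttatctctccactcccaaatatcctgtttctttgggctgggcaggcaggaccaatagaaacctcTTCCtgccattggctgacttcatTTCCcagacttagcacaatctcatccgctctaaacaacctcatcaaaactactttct
On both strands together, GGAA occurred 4 times in the *Kdr* window, 5 times in the *Lyve1* window, 2 times in the *Erg* window, and 8 times in the matched window of *Stab2*, which is not printed. It occurred at least once in 93.2% of all 33469 RefSeq windows of this length, with a median of 3 matches, so that its presence does not set these genes apart. The longer form AGGAAG, which contains GGAA, was found once each in the *Lyve1*, *Erg*, and *Stab2* windows and not in that of *Kdr*, and in 29.5% of all windows. Windows of *Pecam1*, *Cdh5*, *Vwf*, and *Tek* had no entry in the RefSeq table.

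After 6 hours of sevoflurane the endothelial genes stayed near the level of the control, with the exception of *Cdh5*. None of the 8 members passed the 2-fold limit against the sevoflurane control, in a comparison in which 2.23% of 9754 genes were called up and 3.3% were called down. No member passed a 1.5-fold limit either, which 8.03% of all genes passed upward and 8.08% downward. By any amount, 3 members were higher (56.5% of all genes) and 5 were lower (43.5% of all genes), whereas in FPKM 1 was higher and 7 were lower. The median log2 change of the 8 members was -0.04, compared with 0.05 over all genes.

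*Cdh5* showed the largest difference with sevoflurane. It measured 32.4 TPM in the control and 23.8 TPM in the 6 hour liver of the sevoflurane pair, and 31.4 and 30.8 TPM in the desflurane pair. The 3 libraries other than sevoflurane for 6 hours thus lay close together, and the sevoflurane library was 0.736 times its own control and 0.757 times the desflurane control. The controls differed from each other by a ratio of 0.971. Over all genes, 21.8% had a larger absolute log2 change against the sevoflurane control than *Cdh5*. When the transcript assembled by StringTie at the same locus was used in place of the annotated gene, a choice made after the values were seen, the log2 change was -0.20 instead of -0.43.

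The other members differed less with sevoflurane. The ratio to the sevoflurane control was 0.904 for *Kdr*, 0.950 for *Stab2*, 0.911 for *Vwf*, 0.990 for *Tek*, 1.01 for *Pecam1*, 1.03 for *Lyve1*, and 1.05 for *Erg*. Against the desflurane control, *Kdr*, *Stab2*, and *Vwf* were again lower (0.949, 0.915, and 0.920) and *Lyve1* was again higher (1.16), whereas *Pecam1*, *Tek*, and *Erg* changed direction (0.932, 1.08, and 0.943). In that comparison, 2 members were higher (58.3% of all genes) and 6 were lower (41.7%). In FPKM this count turned around, with 6 higher and 2 lower (*Cdh5* and *Stab2*). None of the 8 passed 2-fold (2.52% of all genes upward and 2.59% downward) or 1.5-fold (8.64% and 7.27%). For *Pecam1*, *Tek*, and *Erg* the direction with sevoflurane therefore depended on which control was used. The ratio between the controls ranged from 0.893 for *Lyve1* to 1.12 for *Erg* among the members, and only *Cdh5* and, against the desflurane control, *Lyve1* had a ratio outside this range after 6 hours of sevoflurane.

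After 6 hours of desflurane most endothelial genes were slightly higher than in the desflurane control, and *Tek* and *Lyve1* were the highest relative to it. None of the 8 members passed the 2-fold limit, which 2.79% of 9855 genes passed upward and 1.48% downward. None passed the 1.5-fold limit, which 10.4% of all genes passed upward and 4.25% downward. By any amount, 7 members were higher (66.6% of all genes) and *Cdh5* was lower (33.4% of all genes) at 0.980 times its control. Against the sevoflurane control, 7 members were higher in TPM (64% of all genes) and *Cdh5* lower (36%), but in FPKM 3 were higher and 5 lower (*Cdh5*, *Vwf*, *Stab2*, *Lyve1*, and *Kdr*). In that comparison none passed 2-fold (2.84% of all genes upward and 1.58% downward) or 1.5-fold (9.67% and 4.5%). The median log2 change of the members against their own control was 0.14, close to the 0.11 of all genes. After median-of-ratios scaling, which shifts log2 changes with desflurane by -0.13, the median of the members was 0.02, and 5 were higher and 3 lower (*Cdh5*, *Kdr*, and *Vwf*). Under the same scaling, 4810 genes were higher and 5031 were lower over all genes.

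*Tek* was 1.48-fold higher with desflurane than in its control. The sevoflurane pair measured 10.5 and 10.4 TPM, and the desflurane pair 9.63 TPM in the control and 14.2 TPM at 6 hours. Only the desflurane library stood apart, and it was 1.35-fold higher than the sevoflurane control as well. Over all genes, 14.01% had a larger absolute log2 change with desflurane. In this library a transcript assembled on the opposite strand reached into the *Tek* gene over 22884 bases, or 18.0% of its span. Another opposite-strand transcript, in the sevoflurane control, covered 3.74% of the span at 1.21 TPM. The transcript of the desflurane library measured 9.43 TPM, compared with 9.48, 8.13, and 10.8 for the transcripts of the other 3 libraries that ended within 100 bases of it and did not reach *Tek*. Whether its reads contribute to the *Tek* value was not tested. With the transcript assembled on the same strand as *Tek* in place of the annotated gene, the log2 change was 0.65 instead of 0.52. This choice, too, was made after the values were seen.

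*Lyve1* was the only member higher in both 6 hour libraries than in both controls. The controls measured 44.2 TPM (sevoflurane) and 39.5 TPM (desflurane), and the 6 hour livers 45.7 and 50.5 TPM. The margin was small for sevoflurane, at 1.03-fold over its own control, and larger for desflurane, at 1.28-fold over its own control and 1.14-fold over the sevoflurane control. *Cdh5* was the only member lower in both 6 hour libraries than in both controls, and its margin with desflurane was small. Over 9993 genes with TPM values higher than 2 in at least 1 library, 33.3% were above both controls in both 6 hour libraries and 13.3% were below them. The members had 1 of 8 in each direction. After median-of-ratios scaling 1 was above (*Lyve1*) and 3 were below (*Cdh5*, *Vwf*, and *Kdr*), and in FPKM *Erg* was above in place of *Lyve1*. *Stab2* (33.8, 32.1, 35.1, and 40.2 TPM in the order given above), *Pecam1* (18.0, 18.3, 19.6, and 21.9 TPM), and *Erg* (6.30, 6.63, 7.03, and 7.79 TPM) were highest after 6 hours of desflurane without leaving the control range after sevoflurane on the same side.

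**Figure D2:**
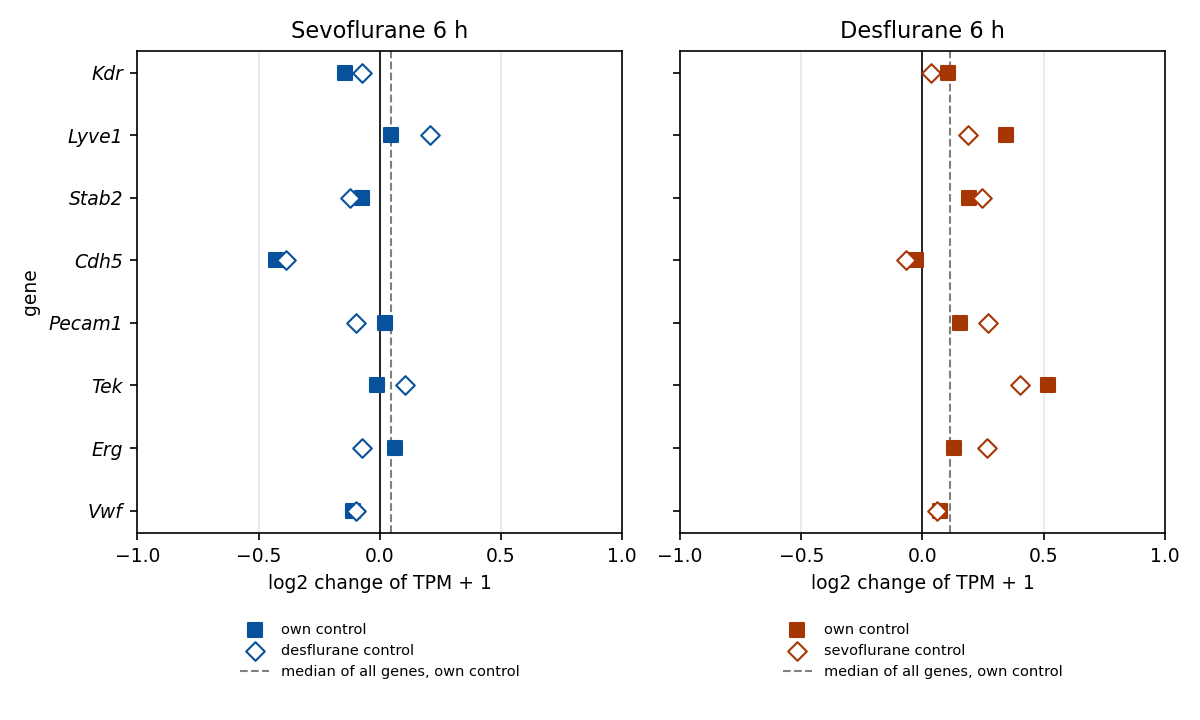
Log2 change of TPM + 1 of each endothelial gene after 6 hours of sevoflurane (left) or desflurane (right), against the control of the same agent (filled squares) and of the other agent (open diamonds); the dashed line is the median of all genes against the own control. *Cdh5* with sevoflurane is at -0.43 and *Tek* with desflurane is at 0.52.

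When the 6 hour livers were compared directly, all 8 members were higher with desflurane than with sevoflurane, whereas 58.6% of 9829 genes were higher. The ratio ranged from 1.105 for *Lyve1* to 1.37 for *Tek*, with *Cdh5* at 1.29 and *Stab2* at 1.25, and the median log2 difference was 0.23. No member passed 1.5-fold, which 8.98% of all genes passed upward and 4% downward, or 2-fold, which 2.76% passed upward and 1.17% downward, and 41.4% of all genes were lower with desflurane. All 8 remained higher with desflurane after median-of-ratios scaling, with a median of 0.15, but only 6 were higher in FPKM, where *Lyve1* and *Kdr* were lower. Between the controls, 3 members were higher and 5 were lower in the desflurane control, compared with 45.1% and 54.9% of 9756 genes, and none passed 2-fold (1.17% of all genes upward and 1.17% downward) or 1.5-fold (3.82% upward and 4.12% downward). In FPKM, 0 members were higher and 8 were lower in the desflurane control. Added together, the members reached 202 and 189 TPM in the sevoflurane pair and 197 and 224 TPM in the desflurane pair. The sums after 6 hours lay on opposite sides of the controls in TPM, but in FPKM (79.3 and 71.4, and 68.3 and 73.7) both lay between the controls.

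Ratios between members within a library do not depend on how libraries are scaled. The ratio of *Lyve1* to *Cdh5* was 1.37 and 1.26 in the controls of sevoflurane and desflurane, and it was 1.92 and 1.64 after 6 hours of sevoflurane and desflurane. *Stab2* relative to *Cdh5* likewise was 1.04 and 1.12 in the controls and 1.35 and 1.30 after 6 hours. Both ratios were higher in the 6 hour livers of both agents than in both controls. The general endothelial genes *Kdr* and *Tek* showed the same relative to *Cdh5*. The *Kdr* ratio was at most 1.63 in the controls and at least 1.75 after 6 hours. The *Tek* ratio was 0.325 and 0.306 in the controls and 0.438 and 0.463 after 6 hours. *Stab2* relative to *Kdr* overlapped, at 0.640 and 0.698 in the controls and 0.673 and 0.743 after 6 hours. *Lyve1* relative to *Kdr* was 0.839 and 0.787 in the controls and 0.959 and 0.935 after 6 hours, without overlap. *Tek* relative to *Kdr* was 0.200 and 0.192 in the controls and 0.219 and 0.264 after 6 hours, again higher in both 6 hour livers. *Lyve1* relative to *Stab2* was 1.31 and 1.13 in the controls and 1.42 and 1.26 after 6 hours, which overlapped. *Erg* relative to *Pecam1* stayed between 0.350 and 0.363 in all 4 libraries. These pairs were chosen with the values of the members known.

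Other genes of endothelial cells were examined in 3 lists that share no gene with the members, namely sinusoidal genes, general endothelial genes, and genes of capillaries and larger vessels. Of 65 listed genes 58 were found. After sevoflurane, 25 of the 46 genes over the TPM limit were higher and 21 were lower. Of these, 0 were called up and 2 called down (*Plvap* and *Fli1*), and the median log2 change of the 46 was 0.02. Over all genes with sevoflurane, 56.5% were higher and 43.5% lower, 2.23% were called up and 3.3% down, and the median was 0.05. After desflurane, 43 of 48 were higher and 5 were lower, with 2 called up (*Cd34* and *Selp*) and 1 called down (*S1pr1*). The median was 0.29, compared with 0.11 over all genes. Over all genes with desflurane, 66.6% were higher and 33.4% lower, and 2.79% were called up and 1.48% down. With desflurane, 13 of the 48 genes passed 1.5-fold upward (10.4% of all genes) and 1 passed it downward (4.25% of all genes). After median-of-ratios scaling, 20 of the listed genes were higher and 26 were lower with sevoflurane, so that the majority turned. Over all genes, 5015 were then higher and 4760 lower. With desflurane 39 of the listed genes were higher and 9 were lower, and 7 passed 1.5-fold upward. Over all 9841 genes, 4810 were then higher and 5031 lower, and 636 passed 1.5-fold upward.

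*S1pr1*, the sphingosine-1-phosphate receptor that stabilizes endothelial contacts and is also present on lymphocytes, was lower in both 6 hour livers. The controls measured 70.5 TPM (sevoflurane) and 80.4 TPM (desflurane), and the 6 hour livers 38.0 and 37.2 TPM. The 6 hour livers were nearly equal and both controls lay far over them. The ratio was 0.539 with sevoflurane and 0.463 with desflurane against the respective controls, and 0.473 and 0.528 against the control of the other agent. The desflurane ratio passed the 2-fold limit with its own control and the sevoflurane ratio passed it with the desflurane control.

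*Plvap*, which encodes the diaphragm protein of endothelial pores and marks endothelium outside the sinusoids, was lower after sevoflurane. The sevoflurane pair measured 13.98 and 6.28 TPM and the desflurane pair 13.5 and 16.7 TPM. The sevoflurane library stood apart from the other 3, at 0.449 times its own control and 0.466 times the desflurane control. *Fli1*, an ETS factor related to *Erg* that is also expressed by blood cells, was 8.54 and 3.95 TPM without and with 6 hours of sevoflurane, and 5.52 TPM in both desflurane libraries. Its ratio with sevoflurane was 0.462 against its own control and 0.715 against the desflurane control, so that the call depended on the control. The desflurane control of *Fli1* was itself 0.646 times the sevoflurane control.

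*Mgp*, a matrix protein of vessel walls, *Efnb2*, an arterial ligand, and *Cav1*, the caveolae protein, measured 20.2, 22.7, 17.0, and 24.7 TPM, 5.90, 4.14, 5.99, and 6.68 TPM, and 2.32, 3.49, 2.77, and 3.42 TPM without being called. Among general endothelial genes, *Eng*, a TGF-beta co-receptor, was 57.2, 58.5, 53.0, and 61.0 TPM. *Sox18*, an endothelial transcription factor, was 4.46, 3.69, 4.79, and 8.64 TPM and had the highest ratio with desflurane among genes of its list over the limit, at 1.80.

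*Cd34* and *Selp* passed the 2-fold limit with desflurane at low levels. *Cd34*, a surface protein of vascular endothelium, was 2.39, 1.46, 0.977, and 2.30 TPM in the order given above, and *Selp*, the adhesion receptor P-selectin, was 1.57, 1.47, 0.926, and 2.42 TPM. Both had their lowest value in the desflurane control, and against the sevoflurane control their ratios with desflurane were 0.962 and 1.54, so that neither call held.

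**Figure D3:**
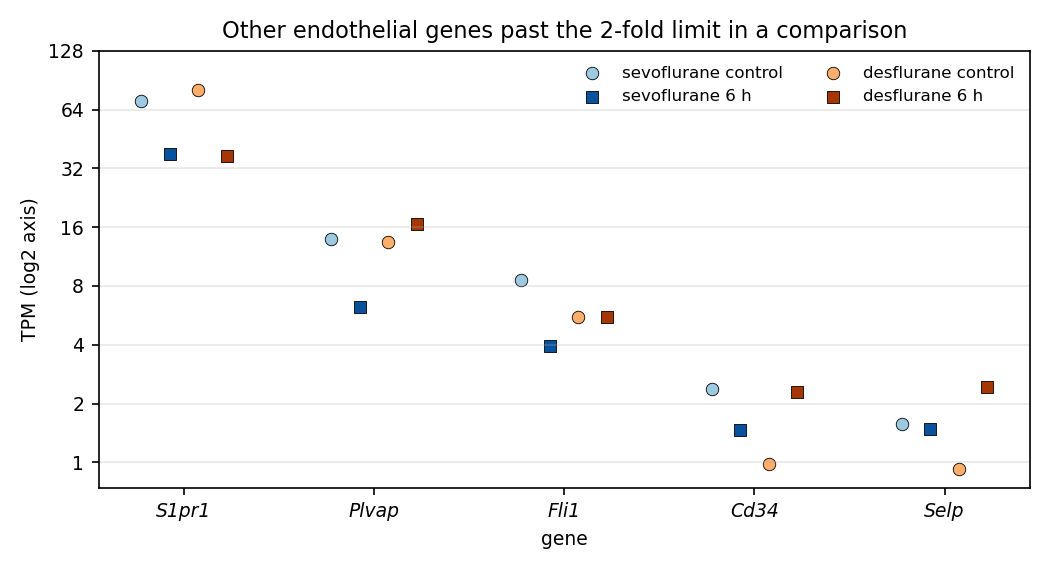
TPM values (log2 axis) in the 4 libraries of the 5 other endothelial genes that passed the 2-fold limit against the control of the same agent; circles are controls and squares are 6 hour livers. Both 6 hour values of *S1pr1* (38.0 and 37.2) lie under both controls, and the sevoflurane value of *Plvap* (6.28) lies under the other 3 libraries.

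Among the abundant sinusoidal genes, *Fcgr2b*, an inhibitory Fc receptor that clears immune complexes, was 89.96, 93.1, 83.9, and 96.2 TPM. *Ehd3*, an endocytic trafficking gene, was 59.1, 53.8, 56.9, and 71.0 TPM, and *Nr2f2*, a venous transcription factor, was 49.3, 46.9, 45.7, and 51.2 TPM. These levels varied by amounts similar to those of the members. Among the sinusoidal genes over the limit of 2 TPM, *Flt4*, a receptor for VEGF-C, had the lowest ratio with sevoflurane, at 0.724, and *Gata4*, a transcription factor of sinusoidal identity, had the lowest ratio with desflurane, at 0.756. *Bmp6*, an endothelial signal for hepcidin expression in hepatocytes, had the highest ratio of these genes with both agents, at 1.15 and 1.56, from values of 3.34 and 2.25 TPM in the controls.

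The ligands and receptors of the VEGF and angiopoietin pathway, some of which also belong to the lists above, showed small differences. Of 9 genes over the TPM limit, 3 were higher and 6 were lower with sevoflurane, and 7 were higher and 2 were lower with desflurane. Over all genes, 56.5% were higher with sevoflurane and 66.6% with desflurane. None of the 9 was called by the 2-fold rule with either agent. Over all genes, 2.23% were called up and 3.3% down with sevoflurane, and 2.79% up and 1.48% down with desflurane. After median-of-ratios scaling, 4 of the 9 were higher and 5 were lower with desflurane, compared with 4810 higher and 5031 lower over all genes. *Vegfa*, the main ligand of *Kdr*, was 79.9, 75.1, 91.8, and 87.1 TPM. *Tie1*, a partner of *Tek*, was higher in both 6 hour livers than in both controls, with TPM values of 10.9, 16.1, 13.4, and 18.4. *Ptprb*, a phosphatase acting on *Tek*, showed the same arrangement with 34.2, 36.9, 33.1, and 48.1 TPM. With *Flt1*, 3 of the 9 genes were above both controls in both 6 hour livers (33.3% of all genes). *Nrp1* was below both controls in both (13.3% of all genes). *Flt1*, a second VEGF receptor, was 1.06-fold higher with sevoflurane and 1.55-fold higher with desflurane. Among genes over the limit, *Nrp2*, a co-receptor, had the lowest ratio with sevoflurane (0.673) and *Nrp1* had the lowest ratio with desflurane (0.893).

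In a list of genes that respond to blood flow or mediate adhesion, 2 of 7 genes over the TPM limit were higher with sevoflurane. With desflurane 7 of 8 were higher, and *Selp*, described above, was the only call. Over all genes, 56.5% were higher with sevoflurane and 66.6% with desflurane, where 2.79% were called up and 1.48% down. *Adamts1*, a secreted protease, was 7.92, 12.4, 7.37, and 14.2 TPM, and *Thbd*, the anticoagulant receptor thrombomodulin, was 5.22, 8.26, 5.67, and 9.17 TPM. For both genes the 6 hour values lay over both controls, by 1.46-fold to 1.92-fold, without passing the 2-fold limit. Of 8 genes over the limit in this list, only these 2 had this arrangement (33.3% of all genes), and 0 had the reverse (13.3%). *Klf2*, a flow-induced transcription factor, was 12.2, 9.54, 10.8, and 14.1 TPM, and *Klf4*, its relative, was 3.84, 2.08, 2.62, and 3.85 TPM. Both were lower with sevoflurane and higher with desflurane than the respective control. *Icam1*, a leukocyte adhesion receptor, was 23.7, 22.5, and 24.1 TPM in all libraries except the desflurane control, where it was 34.4 TPM. *Sele* was listed at 0 in every library.

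**Figure D4:**
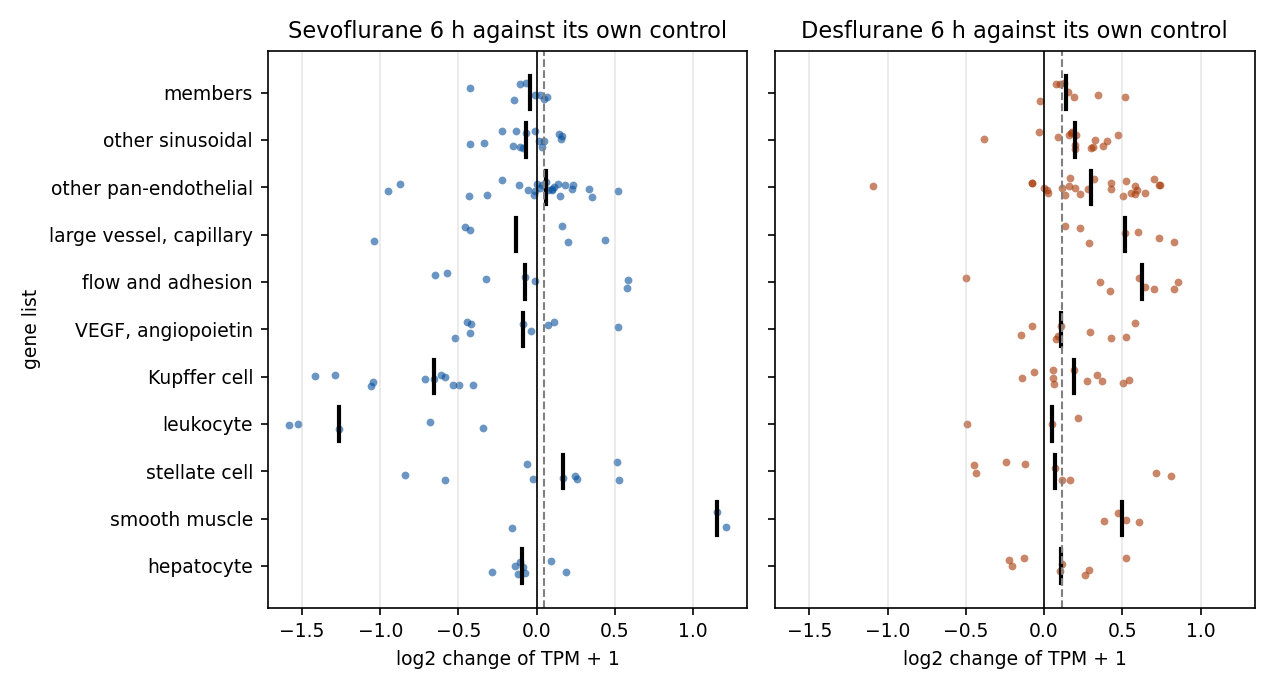
Log2 change of TPM + 1 for each gene with a TPM value higher than 2 in at least 1 of the compared libraries, by list, after 6 hours of sevoflurane (left) and desflurane (right) against the respective control; black bars are list medians and the dashed line is the median of all genes. With sevoflurane the median is -0.65 for Kupffer cell genes and -0.04 for the endothelial members.

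Markers of other cell types were set beside these values. All 11 Kupffer cell genes were lower with sevoflurane than in its own control (43.5% of all genes). Of these, 4 were called down (3.3% of all genes), and the median log2 change was -0.65. Against the desflurane control all 11 were lower again (41.7%), with 2 called down (2.59%) and a median of -0.32. Between the controls, 10 of 11 were lower in the desflurane control (54.9%), with a median of -0.28. With desflurane, 9 of 11 were higher than in its own control (66.6%), with a median of 0.19. After median-of-ratios scaling 6 of 11 were higher, with a median of 0.06. Against the sevoflurane control 8 of 11 were lower with desflurane (36%), with a median of -0.11. The summed TPM value of this list was 809, 485, 641, and 757 in the order given above, and no gene of it was at 0. All 5 leukocyte genes over the limit were lower with sevoflurane than in its own control (43.5% of all genes). All 5 were also lower in the desflurane control than in the sevoflurane control (54.9% of all genes). The sum of the leukocyte list was 46.9, 24.1, 34.3, and 34.7. With sevoflurane, *Stab2* was 0.950 times its own control and 0.915 times the desflurane control, and *Lyve1* was 1.03 and 1.16 times these controls. *Fli1*, *S1pr1*, and *Pecam1* are expressed by leukocytes as well as by endothelium. Platelet genes, of interest because platelets carry *Vwf*, *Pecam1*, and *Selp*, had sums of 6.21, 6.28, 7.97, and 6.19, with 1 of 7 genes over 2 TPM. Hepatocyte genes, which dominate the RNA of the liver, had median log2 changes of -0.10 with sevoflurane and 0.11 with desflurane, and stellate cell genes had 0.17 and 0.07. After median-of-ratios scaling, the desflurane medians of these lists were -0.02 and -0.06. Of 3 smooth muscle genes over the limit with sevoflurane, *Acta2* (2.52-fold) and *Tagln* (2.36-fold) were called up (2.23% of all genes). Against the desflurane control *Acta2* was called again at 2.1-fold (2.52% of all genes), whereas *Tagln* at 1.98-fold was not. With desflurane, *Acta2* and *Tagln* were 1.60-fold and 1.48-fold higher than in the desflurane control. Of 3 genes over the limit in the lymphatic list, *Ccl21* was called down with sevoflurane at 0.3996 times its control (3.3% of all genes). Against the desflurane control its ratio was 0.558, so that this call depended on the control. *Prox1*, also a hepatocyte gene, was 0.970 times the sevoflurane control. Sums of cholangiocyte genes were 15.1, 16.7, 21.0, and 14.3, and those of erythroid genes, a sign of the blood left in the tissue, were 115, 81.8, 87.3, and 48.6. The part of these cell types in the values of the members was not tested.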

How the data were processed

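Libraries were made from total RNA of 4 livers, 1 per condition, and samples were grouped by their treatment labels. The authors trimmed reads with sickle, mapped them to rn6 with HISAT2, sorted them with SAMtools, and ran StringTie with the refGene annotation. Each deposited table holds 3 measures of a gene, namely mean read coverage (a signal without normalization), FPKM as the authors obtained it from StringTie, and TPM, a signal in which the assembled rows alone already fill the TPM scale. The annotated rows on the same scale were used here. Only rows longer than 200 bases were kept, and TPM values were summed per symbol, which left 16982 genes present in all 4 libraries. Each member had 1 row.

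Each 6 hour library was compared with both controls. Calls required a TPM value higher than 2 in the higher library and more than a 2-fold difference, without a pseudocount, and medians used a pseudocount of 1 TPM. No tests were made. The aligned bases of each library were estimated by relating coverage to FPKM over genes. The members and lists were chosen with earlier results of these data known. Genes named are all members and, from each of the other lists shown in full (sinusoidal, general endothelial, large vessel and capillary, flow and adhesion, VEGF and angiopoietin), the 3 most abundant, the extreme, and the called genes; for the lists of other cell types only some of these are named. *Sele* was named after its values were seen. Alternatives were the TPM limit, fold limit, pseudocount, median-of-ratios scaling, FPKM, the length filter, the longest row per symbol, the mean of the controls, and, added after the data were seen, assembled rows for members and the rescaling of the other lists. Promoter sequences are those of RefSeq on GRCr8, matched by symbol for 4 of the 8 members, and their coordinates do not apply to rn6. Python 3.11.15, numpy 2.4.6, pandas 2.3.3, and matplotlib 3.10.9 were used.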

Additional observations from a re-analysis of the deposited data

Results flagged for a closer look

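Several results went in opposite directions with the 2 agents relative to their own controls. With 1 library per state these differences were not tested, and a pair of directions can differ by the difference between the controls alone. Values are log2 changes with desflurane minus those with sevoflurane, after adding 1 to the TPM values. Among the members this difference was 0.18 for *Vwf*, 0.26 for *Stab2*, 0.25 for *Kdr*, and 0.53 for *Tek*, and it was 0.18 for the median of the members. After median-of-ratios scaling *Vwf* and *Kdr* were lower with both agents, at -0.03 and -0.02 with desflurane. *Tek* belongs here only by a change of -0.01 with sevoflurane, which was 0.10 against the desflurane control. Among sinusoidal and general endothelial genes it was 0.45 for *Ehd3*, 0.23 for *Nr2f2*, 0.52 for *Flt4*, -0.53 for *Gata4*, 0.95 for *Fli1*, and 0.96 for *Sox18*. *Fli1* belongs here only by a change of 0.0001 with desflurane. Among genes of vessels, flow, and VEGF signaling it was 1.3305 for *Plvap*, 0.56 for *Efnb2*, 0.88 for *Selp*, 1.20 for *Cd34*, 0.68 for *Klf2*, 1.07 for *Klf4*, and 0.81 for *Nrp2*. Among list medians over at least 5 genes it was 0.27 for sinusoidal genes, 0.65 for large vessel and capillary genes, 0.70 for flow and adhesion genes, 0.20 for VEGF and angiopoietin genes, 0.20 for hepatocyte genes, and 0.84 for Kupffer cell genes. After median-of-ratios scaling the desflurane median was 0.06 for Kupffer cell genes, and for VEGF and angiopoietin genes and hepatocyte genes both agents had medians under 0.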

How the results depend on the processing

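None of the 8 members was called in any of the 6 comparisons with TPM limits of 1, 2, or 5 or no limit, with a 1.5-fold limit, FPKM, median-of-ratios scaling, an added pseudocount, no length filter, or the longest row per symbol. Medians of the members depended on scaling. With median-of-ratios scaling they were 0.022 for desflurane against its own control, 0.10 for desflurane against the sevoflurane control, and 0.15 for desflurane against sevoflurane at 6 hours. In FPKM the same medians were 0.061, -0.031, and 0.037, and they were 0.025 for sevoflurane against the desflurane control and -0.16 between the controls. Median-of-ratios scaling put 4 members outside the control range (*Lyve1* above and *Cdh5*, *Vwf*, and *Kdr* below) instead of 2, and FPKM replaced *Lyve1* by *Erg*. The summed level was 208, 204, and 212 in the sevoflurane control, the desflurane control, and the 6 hour desflurane library after rescaling. In FPKM it was 79.3, 71.4, 68.3, and 73.7 in the 4 libraries, so that the 6 hour libraries were no longer on opposite sides of the controls. With the control of the other agent, 3 members changed direction with sevoflurane (*Pecam1*, *Tek*, and *Erg*) and 0 with desflurane. Against the mean of the controls, the same 3 genes changed direction with sevoflurane. With assembled rows, available for 5 members, *Lyve1* and *Erg* changed direction with sevoflurane and *Cdh5* with desflurane, and the cause was not tested. The spread used to judge the medians was the pooled SD of a member between the controls, 0.07 on the log2 scale. Sums were judged by the SD of the summed TPM between the controls, 3.87. Single members were judged by their own SD between the controls, and counts by whether they differed more than 1.5-fold. No paired analysis was possible because each condition has 1 library, so that the groups share only 1 replicate number, and the results come from no test.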
